A study of Mus musculus with 4 samples.

Results

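The genes described here are 10 regulators and markers of the neuroectoderm, the part of the early embryo that gives rise to brain and spinal cord. They were chosen by gene symbol (Otx2, Six3, Pax6, Sox1, Sox3, Zic1, Neurog2, Lhx2, Nes and Pax3), with earlier results of these data known. Each had 1 row among the 46406 rows of the table. Nes encodes nestin, an intermediate filament protein of neural progenitors, so it is a marker and not a transcription factor. The other members encode DNA-binding proteins. Chromatin accessibility over gene features was measured by ATAC-seq, in which the Tn5 transposase cuts and tags open DNA, in J1 mouse embryonic stem cells, an established line, grown without feeder cells. Of the 4 libraries, 2 came from cells labelled wild type (control 1 and 2) and 2 from cells labelled Zscan4 OE, an overexpression of the zinc finger protein Zscan4 (Zscan4 OE 1 and 2). All were labelled with the same passage. The sources used here do not give how Zscan4 was introduced, which copy of the gene was used or whether a line was 1 clone. Replicates are not stated to be separate cultures, so a p-value reflects the spread of these 4 libraries alone, and that spread may be technical.

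In the embryo, ectoderm cells that escape BMP signals and receive FGF signals become neural. Otx2, Six3 and Lhx2 then pattern the forebrain and eye field, SoxB1 factors such as Sox1 and Sox3 hold cells in a progenitor state, and proneural factors such as Neurog2 start neuronal differentiation. In embryonic stem cells most of these genes are held at low expression under Polycomb proteins, and Otx2 also acts when naive cells move towards the formative state. An ATAC-seq value over exons is not an expression level.

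The promoters of the members differed widely in CpG content, and 4 of them are printed because they belong to the 2 lower genes with a listed promoter (Otx2 and Six3), the higher gene (Nes) and the gene with the highest level (Lhx2). Each window runs from 250 bases before to 50 after an annotated start (RefSeq, GRCm38.p6), 5′ to 3′ on the gene's strand, with CpG dinucleotides in capitals. Otx2 is shown at its most upstream start (chr14:48667595-48667894, minus strand), Six3 at chr17:85620584-85620883 (plus), Nes at chr3:87970843-87971142 (plus) and Lhx2 at its most upstream start (chr2:38339031-38339330, plus).
Otx2: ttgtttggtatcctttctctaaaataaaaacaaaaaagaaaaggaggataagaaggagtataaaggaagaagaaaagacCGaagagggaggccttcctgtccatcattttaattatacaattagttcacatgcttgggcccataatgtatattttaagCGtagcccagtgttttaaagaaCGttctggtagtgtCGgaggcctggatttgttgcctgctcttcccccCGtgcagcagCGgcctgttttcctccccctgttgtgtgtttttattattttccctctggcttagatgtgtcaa
Six3: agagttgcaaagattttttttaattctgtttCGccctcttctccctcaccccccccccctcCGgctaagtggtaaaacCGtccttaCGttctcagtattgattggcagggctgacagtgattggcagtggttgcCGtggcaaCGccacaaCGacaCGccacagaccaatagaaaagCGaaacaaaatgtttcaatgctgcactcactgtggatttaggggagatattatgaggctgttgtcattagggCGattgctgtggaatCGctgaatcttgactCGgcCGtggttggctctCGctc
Nes: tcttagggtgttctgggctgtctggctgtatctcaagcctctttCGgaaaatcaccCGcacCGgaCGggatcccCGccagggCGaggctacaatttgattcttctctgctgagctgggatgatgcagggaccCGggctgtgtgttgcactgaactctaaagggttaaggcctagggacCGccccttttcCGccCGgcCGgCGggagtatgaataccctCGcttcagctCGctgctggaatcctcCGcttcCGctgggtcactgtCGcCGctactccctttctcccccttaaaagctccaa
Lhx2: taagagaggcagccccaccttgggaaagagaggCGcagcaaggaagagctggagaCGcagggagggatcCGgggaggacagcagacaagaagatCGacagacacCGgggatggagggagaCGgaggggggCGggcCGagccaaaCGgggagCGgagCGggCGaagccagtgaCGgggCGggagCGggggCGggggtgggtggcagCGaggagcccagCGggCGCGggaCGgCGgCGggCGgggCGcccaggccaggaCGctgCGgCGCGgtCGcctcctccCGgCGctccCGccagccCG
The table of promoters held 13 windows for 8 of the 10 members, and Pax3 and Sox3 are named only. The printed windows held 6, 14, 18 and 34 CpGs, in the order Otx2, Six3, Nes and Lhx2, against a median of 7 over 32851 windows. The Otx2 window printed was the lowest of the member windows, and the other listed starts of Otx2 held 11, 16 and 8 CpGs. Of the 13 member windows 12 lay above that median, with Sox1 highest at 37 CpGs. The word GGGCGG, the core of the GC box, was found on either strand in 5 of the 13 windows and in 35.7% of all windows. TGCACAC, a word reported to be recognised by Zscan4, was found on either strand in 1 member window, that of Pax6 at its upstream start, and in 4.4% of all windows. TATAAA was found on either strand in 1 member window, that of Otx2 printed above, and in 13.6% of all windows. A match is a description of these letters and not a binding site. The deposited values are over gene features, so bases of a window outside a gene's exons do not enter its value. Some windows, such as that of Six3, lie inside the annotated span of their gene, and how much of each window was counted was not tested.

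The deposited values are called RPKM, reads divided by feature length and library total. They had been divided by library totals that rotated from row to row, so they were rescaled to each library's own total before use, and RPKM below means the rescaled value. Which total belongs to which library was not given, and the placement with the most alike share of reads on features was used. Under that placement the library totals were 1061428 (control 1), 2903602 (control 2), 3605774 (Zscan4 OE 1) and 4899494 (Zscan4 OE 2) reads. Both Zscan4 OE totals were larger than both control totals, so depth cannot be told apart from group. The members had 0 to 44 reads per library and 15 to 122 over all libraries. At this depth counting error alone is wide, as the exact Poisson 95% intervals in the plot of levels by library show. Sox3, a single-exon gene, had a recovered feature length of 2065 bases, its annotated length. Features covered 6.45% of the gene's span for Pax3 and 14.4% for Lhx2, whose introns are long, and 38.9% to 76.7% for Otx2, Pax6, Six3, Nes, Zic1 and Neurog2. For Sox1 the feature of 4832 bases was longer than the RefSeq span of 4037 bases, so the authors' annotation was another one.

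In 4 of the 10 genes the values of the 2 groups did not overlap. Otx2, Six3 and Pax3 were lower in both Zscan4 OE libraries than in both controls, and Nes was higher. Of all 42989 rows tested below, 10.1% were lower and 19.6% higher in this way, 29.7% in all, and of the 19012 rows with 20 reads or more 11% and 20%. The members stood at 3 of 10 lower and 1 of 10 higher. They were chosen with earlier results of these data known, and the difference from all rows was not tested.

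**Figure D1:**
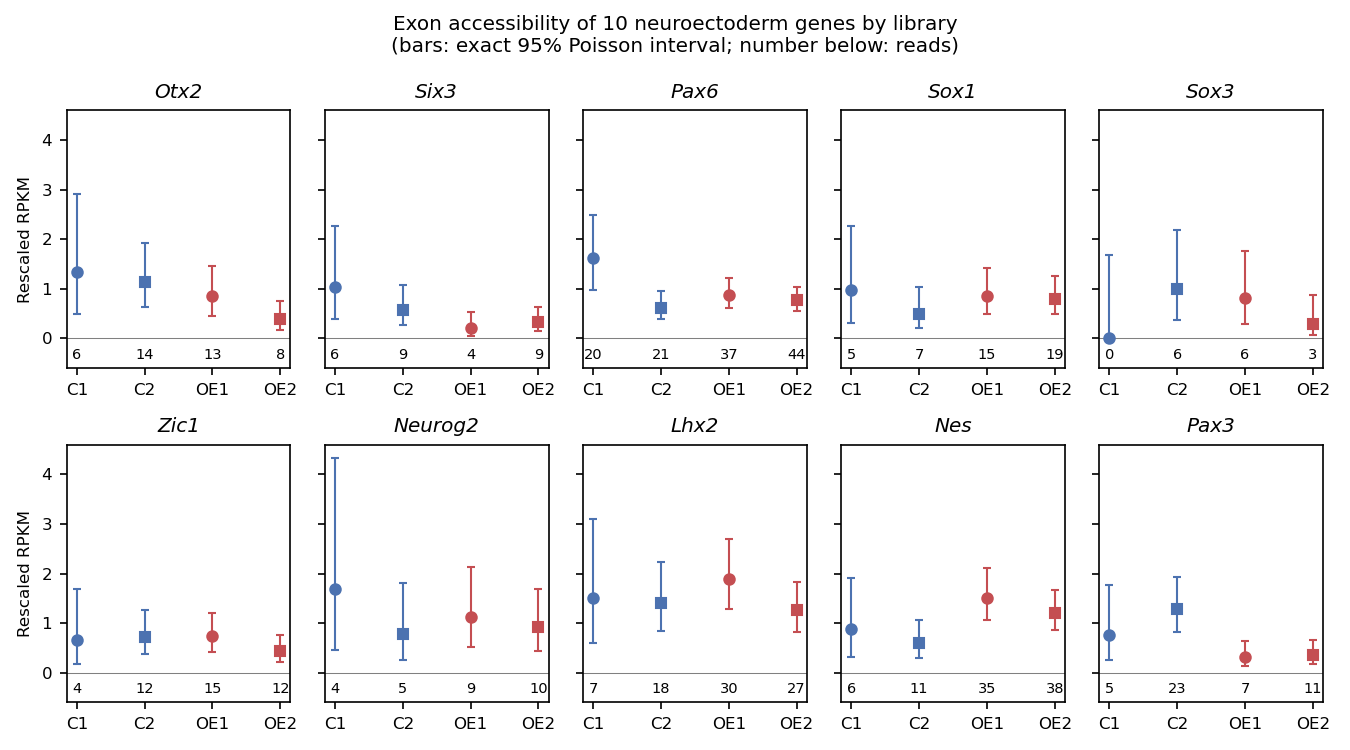
Rescaled RPKM (vertical axis) of each gene in controls 1 and 2 (C1, C2, blue) and Zscan4 OE 1 and 2 (OE1, OE2, red), with exact 95% Poisson intervals as bars and recovered reads printed under each point. Otx2, Six3 and Pax3 lie lower in both Zscan4 OE libraries than in both controls, Nes lies higher, and the other 6 genes overlap between groups.

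The members' levels were spread around that of the median coding gene. Their mean RPKM over the 4 libraries ranked between the 20.6th percentile (Sox3) and the 82.0th (Lhx2) of 19855 protein-coding rows, and 5 of the 10 lay above the median row. In the controls the order of mean levels in RPKM ran from Lhx2 (1.46) through Otx2 (1.24), Neurog2 (1.23), Pax6 (1.11), Pax3 (1.02), Six3 (0.804), Sox1 (0.737), Nes (0.736) and Zic1 (0.694) to Sox3 (0.500). Of the 9 neighbouring pairs in this order, only Lhx2 and Otx2 had control values that did not overlap. In Zscan4 OE Lhx2 was again first (1.57 RPKM), followed by Nes (1.36), Neurog2 (1.02), Sox1 (0.832), Pax6 (0.823), Otx2 (0.620), Zic1 (0.580), Sox3 (0.551), Pax3 (0.338) and Six3 (0.270). There Nes and Neurog2, and Neurog2 and Sox1, were the neighbouring pairs that did not overlap. The largest moves in rank were those of Nes, from eighth to second, and of Otx2, Six3 and Pax3, each 4 places down.

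None of the 10 genes passed the test for a difference between Zscan4 OE and control. The test was limma on log2(RPKM + 0.1), fitted over the 42989 rows whose mean RPKM reached 0.1 and adjusted by Benjamini-Hochberg over all of them. All 10 members entered the fit. Adjusted p-values of the members ran from 0.869 to 0.988, and 0 of the 10 reached an unadjusted p under 0.05. Of all tested rows, 0% passed in either direction at an adjusted p under 0.05, while 5.09% were higher and 1.33% lower at an unadjusted p under 0.05. With voom on the 19012 rows of 20 reads or more, 0 rows were higher and 1 was lower, and it was not a member. A fit without 1 of the Zscan4 OE libraries leaves a lone library in that group. Its calls measure no spread within Zscan4 OE, and such fits are described with the other alternatives below. Libraries of the same depth were simulated with an assumed spread between libraries that was not estimated from these data. There 200 genes with 20 reads or more were changed 8-fold, and 99% had the right direction and 0% were called. Under that assumed spread, this design has little power to call even large changes. The log2 difference was negative in 6 members and positive in 4, where 38% of all tested rows were negative. The median log2 difference was −0.21 in the members and 0.28 over all tested rows. Over rows with 20 reads or more, which hold 9 of the 10 members, these medians were −0.26 and 0.14. The median tested row had 15 reads over all libraries and the median member 44.5, so 0.28 is not a like-for-like background. With all 10, the median of the members was 0.02 without Zscan4 OE 2 and −0.45 without control 2.

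**Figure D2:**
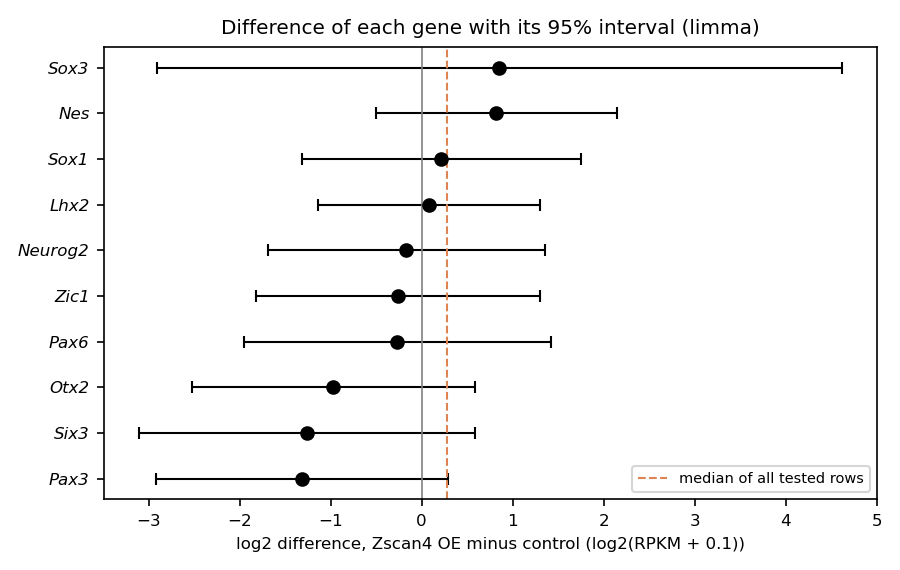
Log2 difference (Zscan4 OE minus control, horizontal axis, on the log2(RPKM + 0.1) scale) of each gene with its 95% interval from limma. The dashed line is the median of all tested rows, 0.28, and every interval includes 0.

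Of the forebrain homeodomain genes, Otx2 and Six3 had groups that did not overlap and Lhx2 had groups that did. Otx2, which directs forebrain and midbrain formation (chromosome 14, 48656781 to 48667644, GRCm38), was at 1.34 and 1.14 RPKM in controls 1 and 2, compared with 0.854 and 0.387 in Zscan4 OE 1 and 2, from 6, 14, 13 and 8 reads. Both Zscan4 OE libraries were below both controls. The group means, 1.24 ± 0.139 and 0.620 ± 0.330 RPKM (SD, n = 2), were 2.00-fold apart, with a log2 difference of −0.97 (SE 0.583, 95% interval −2.53 to 0.58, limma adjusted p = 0.869). A lower value in bulk chromatin can come from counting error or library spread, from fewer cells with the gene open or from less opening per cell. These cannot be told apart here.

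Six3, a repressor of Wnt signals in the anterior forebrain (chromosome 17, 85613608 to 85626191), was at 1.04 and 0.569 RPKM in the controls, with 0.204 and 0.337 in Zscan4 OE, from 6, 9, 4 and 9 reads. The groups did not overlap, and its value in Zscan4 OE 1 was the lowest of the 10 genes there. Means were 0.804 ± 0.332 and 0.270 ± 0.0945 RPKM (SD, n = 2), 2.97-fold apart, with a log2 difference of −1.26 (SE 0.691, 95% interval −3.10 to 0.58, limma adjusted p = 0.869). Lhx2, a LIM homeodomain factor of the eye field and cortex (chromosome 2, 38339271 to 38369737), was at 1.501 and 1.41 RPKM in the controls, with 1.89 and 1.25 in Zscan4 OE, from 7, 18, 30 and 27 reads. Its Zscan4 OE values lay on either side of both controls. The log2 difference was 0.08 (95% interval −1.14 to 1.30), and it was −0.20 without Zscan4 OE 1.

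Of the paired-box genes, Pax3 had separate groups and Pax6 had overlapping ones. Pax3, a factor of dorsal neural tube and neural crest (chromosome 1, 78101267 to 78197136), was at 0.761 and 1.28 RPKM in the controls, with 0.314 and 0.363 in Zscan4 OE, from 5, 23, 7 and 11 reads. The highest Zscan4 OE value was below the lowest control value. Means of 1.02 ± 0.367 and 0.338 ± 0.0347 RPKM (SD, n = 2) were 3.02-fold apart, with a log2 difference of −1.32 (SE 0.602, 95% interval −2.92 to 0.29), the most negative of the 10 (limma adjusted p = 0.869, unadjusted p = 0.0869). Pax6, a regulator of eye and cortical progenitors (chromosome 2, 105668896 to 105698410), was at 1.61 and 0.618 RPKM in the controls, with 0.877 and 0.768 in Zscan4 OE, from 20, 21, 37 and 44 reads. Both Zscan4 OE values fell between the controls, which were 2.61-fold apart. The log2 difference of −0.27 (95% interval −1.95 to 1.42) turned to 0.36 without control 1.

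The SoxB1 genes, Sox1 and Sox3, overlapped between groups. Sox1, among the earliest markers of neural plate (chromosome 8, 12395519 to 12399555), was at 0.975 and 0.499 RPKM in the controls, with 0.861 and 0.803 in Zscan4 OE, from 5, 7, 15 and 19 reads. Its log2 difference was 0.21 (95% interval −1.32 to 1.75), −0.21 without control 2 and −0.06 after centring each library on its median. Sox3 (chromosome X, 60891366 to 60893430) had 0, 6, 6 and 3 reads, which gave 0, 1.0007, 0.806 and 0.297 RPKM. In control 1 the floor of 3 reads stands at 1.37 RPKM, and the exact Poisson 95% interval of 0 reads ends at 1.68 RPKM. Both lie above the value of Sox3 in each of the other libraries. Its log2 difference of 0.85 (95% interval −2.91 to 4.62) rests on that library and was −0.88 without it.

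Zic1 and Neurog2 also overlapped. Zic1, a zinc finger factor of neural plate border and cerebellum (chromosome 9, 91358058 to 91365768), was at 0.662 and 0.726 RPKM in the controls, with 0.731 and 0.430 in Zscan4 OE, from 4, 12, 15 and 12 reads. Zscan4 OE 1 was close to control 2, and Zscan4 OE 2 was the lowest library. The log2 difference was −0.26 (95% interval −1.82 to 1.30) and 0.07 without Zscan4 OE 2. Neurog2, a proneural bHLH factor (chromosome 3, 127632733 to 127635636), was at 1.69 and 0.773 RPKM in the controls, with 1.12 and 0.916 in Zscan4 OE, from 4, 5, 9 and 10 reads. Both Zscan4 OE values again lay between the controls, and the log2 difference of −0.17 (95% interval −1.69 to 1.36) was 0.35 without control 1 and 0.07 with voom.

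Nes, the nestin gene, was the only member with higher values in both Zscan4 OE libraries than in both controls. The gene lies on chromosome 3 (87971093 to 87980451) and was at 0.881 and 0.590 RPKM in the controls, with 1.51 and 1.21 in Zscan4 OE, from 6, 11, 35 and 38 reads. Means were 0.736 ± 0.205 and 1.36 ± 0.215 RPKM (SD, n = 2), a ratio of 1.85, with a log2 difference of 0.82 (SE 0.497, 95% interval −0.51 to 2.15, limma adjusted p = 0.869). With each library left out in turn the difference ran from 0.57 to 1.07.

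For the 4 genes whose groups did not overlap, leaving out a library or changing the pseudocount or filter cannot turn the sign, so the sign is no sign of stability there and the size alone is informative. Over all rescaled alternatives their log2 differences ran from −1.498 to −0.48 for Otx2, −2.05 to −0.50 for Six3, −2.17 to −0.58 for Pax3 and 0.45 to 1.07 for Nes. In the values as deposited, Otx2 and Pax3 stood at 0.33 and 0.06.

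**Figure D3:**
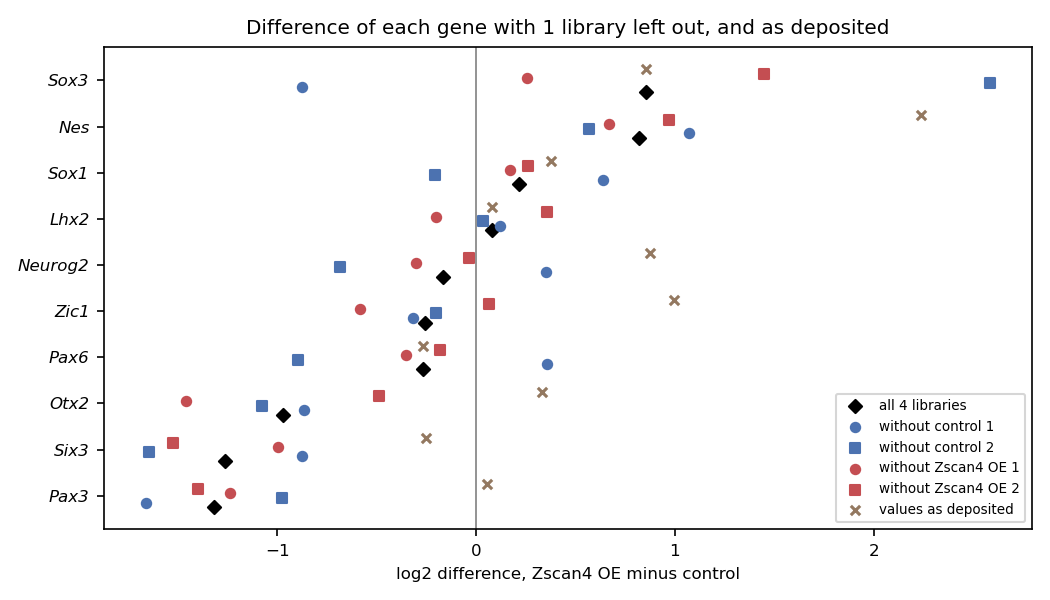
Log2 difference (horizontal axis, Zscan4 OE minus control) of each gene with all 4 libraries (diamonds), with each library left out (circles and squares, blue for controls and red for Zscan4 OE) and in the values as deposited (crosses). For Otx2, Six3, Pax3 and Nes the groups do not overlap, which fixes the sign when a library is left out. The sign of each of the other 6 genes changes with at least 1 library left out.

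Summed over the 10 members there were 63, 126, 171 and 181 reads, or 59.4 and 43.4 RPM (reads scaled to the library total) in the controls, with 47.4 and 36.9 in Zscan4 OE. The groups overlapped, at 51.4 ± 11.3 and 42.2 ± 7.41 RPM (SD, n = 2), a ratio of 0.821. The share of all reads that fell on features was 12.4% and 9.38% in the controls, with 12.8% and 9.93% in Zscan4 OE. The totals were placed on the libraries to make this share most alike, so it is no finding. Divided by reads on features, the sums were 0.0480% and 0.0463% in the controls, with 0.0370% and 0.0372% in Zscan4 OE, so that the groups did not overlap and the ratio was 0.787. The exact Poisson 95% intervals were 0.0369 to 0.0614%, 0.0385 to 0.0551%, 0.0317 to 0.0430% and 0.0320 to 0.0430% in the same order, and they overlapped between groups. Of all 11 lists examined, 7 had sums per feature reads that were lower in both Zscan4 OE libraries and 0 had higher sums, so the pattern was not confined to the members.

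Other genes of neural development were counted in the same way. Over all tested rows 10.1% were lower and 19.6% higher without overlap, and 38% had a negative log2 difference. How the lists below differ from these shares was not tested. Of 28 other neural plate and brain regional factors 12 differed upwards and 16 downwards on the log2 scale, 7 were lower and 2 higher with no overlap between groups, and 0 passed over all rows. Their median was −0.04. Otx1, the paralogue of Otx2, was at 2.61 and 1.21 RPKM in the controls, with 0.921 and 0.903 in Zscan4 OE, a log2 difference of −0.89. Zic4, whose annotated span overlaps that of Zic1, was at 1.003 and 1.10 against 0.671 and 0.454 RPKM. Irx3, an Iroquois homeodomain factor of the neural tube, was at 4.09 and 1.75 against 1.21 and 1.63 RPKM, from 6, 7, 6 and 11 reads. Otx1, Zic4 and Irx3 were named for the largest absolute limma statistic of the list. Among the 12 genes that differed upwards, Hes5 and Emx2 had log2 differences of 1.85 and 1.47.

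Proneural and neuronal genes had 8 positive and 12 negative differences among 20 genes, a median of −0.05, and 1 lower and 1 higher gene without overlap. Over all tested rows, 38% were negative, 10.1% lower and 19.6% higher. Neurod4, a bHLH factor of differentiating neurons, was the lower one, at 1.41 and 2.16 RPKM in the controls, with 0.829 and 0.732 in Zscan4 OE (log2 difference −1.07, SE 0.482, limma adjusted p = 0.869). Nkx6-1, a ventral neural tube factor, had a log2 difference of −0.67 with overlapping groups. Neurod4 and Nkx6-1 were named for the largest absolute limma statistics of the list, so their shared direction does not stand for it. None of the 20 passed.

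Genes of neural induction and Notch signalling had a median of −0.29 among 23 genes, with 15 negative differences and 8 genes lower and 2 higher without overlap. The shares over all tested rows were 38% negative, 10.1% lower and 19.6% higher. Fgf8, a signal of the midbrain border and anterior neural ridge, was at 2.79 and 1.53 RPKM in the controls, with 0.411 and 0.605 in Zscan4 OE, a log2 difference of −1.86 (SE 0.551, limma adjusted p = 0.584) from 2, 3, 1 and 2 recovered reads. Nog, which encodes the BMP antagonist noggin, was at 3.33 and 1.42 against 0.327 and 0.963 RPKM. Bmp4, the gene of a ligand that noggin binds, was at 1.68 and 1.53 against 0.987 and 0.545 RPKM. In each of these 3 genes both Zscan4 OE libraries were below both controls, though antagonist and ligand have opposite roles, and none passed the test. They were named for the largest absolute limma statistic of the list, so their shared direction does not stand for it. Of its 23 genes 8 differed upwards, and the log2 difference of Cer1 was 2.02.

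Neural crest genes had 3 positive and 11 negative differences among 14 genes, a median of −0.28, and 5 lower and 1 higher without overlap. Shares over all tested rows were again 38% negative, 10.1% lower and 19.6% higher. Ngfr, the low-affinity neurotrophin receptor, was at 1.91 and 2.00 RPKM in the controls, with 0.966 and 1.13 in Zscan4 OE. Tfap2b, an AP-2 factor of neural crest, was at 1.93 and 1.63 against 1.09 and 0.741 RPKM. Foxd3, a forkhead factor that also acts in pluripotent cells, was at 0.811 and 1.19 against 0.597 and 0.615 RPKM. Ngfr, Tfap2b and Foxd3 were named for the largest absolute limma statistic of the list. Twist1, 1 of the 3 that differed upwards, had a log2 difference of 1.22. Of 10 neural stem and glial genes 3 were positive and 7 negative, with a median of −0.25. Prom1, the gene of the stem cell surface protein prominin, was at 1.44 and 0.960 against 0.580 and 0.597 RPKM. S100b, a glial calcium-binding protein gene, was at 1.27 and 1.63 against 0.374 and 1.10 RPKM. Fabp7, a radial glia fatty acid binding protein gene, had no read in either control, 2 in Zscan4 OE 1 and 3 in Zscan4 OE 2. None of these genes passed over all rows.

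**Figure D4:**
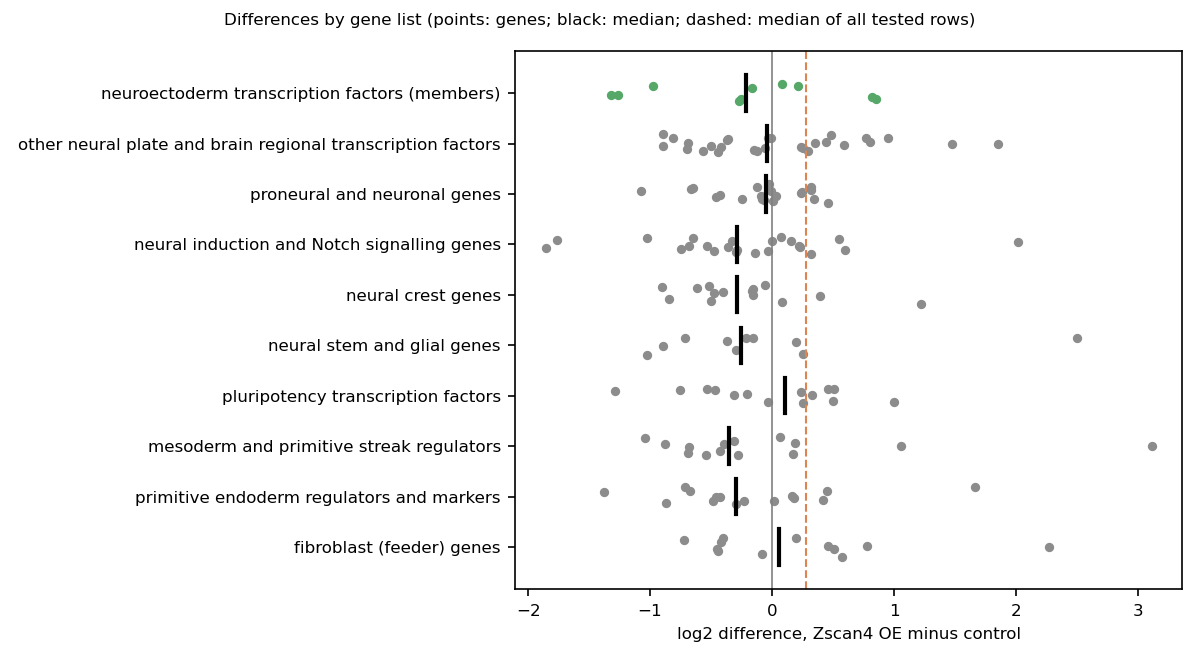
Log2 difference (horizontal axis, Zscan4 OE minus control) of every tested gene of each list, with the list median in black and the median of all tested rows, 0.28, dashed. The medians of the neural, mesoderm and primitive endoderm lists lie below 0, and those of the pluripotency and fibroblast lists lie at 0.10 and 0.06.

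Regulators of other early lineages were set beside the neural genes. Over all tested rows 10.1% were lower and 19.6% higher without overlap. The median log2 difference was −0.35 for 14 mesoderm and primitive streak regulators, with 5 lower and 2 higher without overlap, and −0.30 for 15 primitive endoderm genes, with 3 lower and 2 higher. For 14 pluripotency factors it was 0.10, with 2 lower and 3 higher. Hand1, a factor of trophoblast and heart, was at 1.89 and 2.24 RPKM in the controls against 0.972 and 0.920. Sox17, an endoderm regulator, was at 3.75 and 3.10 against 2.09 and 1.58 RPKM. Foxa2, a forkhead factor of endoderm, had a log2 difference of −0.71 and was lower without overlap. Afp, the alpha-fetoprotein gene, differed upwards with overlapping groups, at 0 and 0.920 against 1.24 and 0.667 RPKM, a log2 difference of 1.66. Pluripotency genes differed in both directions. Nr0b1, a nuclear receptor gene of naive stem cells, was at 2.61 and 1.14 RPKM in the controls against 0.920 and 0.452, a log2 difference of −1.29. Prdm14, a factor of naive stem cells and the germ line, was at 1.84 and 1.88 against 1.08 and 1.03 RPKM. Both were lower in both Zscan4 OE libraries. Zfp42, a marker of naive stem cells, was at 4.51 and 2.01 against 8.11 and 4.67 RPKM, higher in both Zscan4 OE libraries. Msgn1, a presomitic mesoderm factor, had 0, 1, 5 and 6 reads (log2 difference 3.11, limma adjusted p = 0.693), and Mixl1, a primitive streak homeodomain factor, had 2, 2, 9 and 14. Both were higher in both Zscan4 OE libraries. The neuroectoderm median of −0.21 lies among those of these lists, and no gene of any list passed.

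The labelled cell type was compared with its defining genes. All 5 stem cell genes (Pou5f1, Nanog, Sox2, Zfp42 and Esrrb) had reads in every library, with sums of 31.1 and 15.8 RPM in the controls, with 40.8 and 22.0 in Zscan4 OE. The 12 fibroblast genes, which would mark feeder cells, had sums of 69.7 and 57.9 RPM in the controls, with 81.5 and 58.0 in Zscan4 OE, with S100a4 and Lum at 0 in control 1. Both sums overlapped between groups. Of the 5 stem cell genes 3 differed upwards and 2 downwards on the log2 scale. Nanog and Esrrb had log2 differences of 0.50 and 0.33, and Pou5f1 and Sox2 of −0.31 and −0.03, all with overlapping groups. Among the fibroblast genes S100a4 was higher without overlap (2.27, from 0, 1, 2 and 2 reads), while Col3a1 (−0.73) and Pdgfrb (−0.45) were lower. Accessibility over exons is not expression, so these sums do not measure cell types, and their part in the results was not tested.

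Neighbouring genes had differences in both directions. On chromosome 14 the long non-coding gene Otx2os1, 1.64 kb from Otx2, was at 1.07 and 1.04 RPKM in the controls, with 0.630 and 0.773 in Zscan4 OE, below both controls in each Zscan4 OE library, as for Otx2. The nearest coding genes were higher (Tmem260, 0.447 and 0.278 against 0.474 and 0.455 RPKM) or overlapped between groups (Exoc5, log2 difference −0.05). On chromosome 17 the non-coding gene Six3os1 was at 1.11 and 0.696 against 0.420 and 0.550 RPKM, and the coding neighbours Camkmt and Six2 had differences of −0.09 and −0.20 with overlapping groups. Around Pax3 both neighbours had positive log2 differences, with Epha4, an ephrin receptor gene, higher without overlap (0.61) and Sgpp2 at 0.20. Next to Nes, Crabp2, a retinoic acid binding protein gene 17.7 kb away, was at 0.713 and 1.04 RPKM in the controls, with 2.31 and 2.01 in Zscan4 OE (log2 difference 1.23, SE 0.458, limma adjusted p = 0.776), while Bcan, a brain proteoglycan gene on the other side, stood at 0.08.

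Some members share their span with another gene. ATAC-seq reads have no strand, so reads of such overlaps cannot be told apart, and the sources used here do not give how they were counted. In the RefSeq annotation Six3 overlaps Six3os1, Pax6 overlaps Pax6os1 and Elp4, Sox1 lies within Sox1ot, Zic1 overlaps Zic4, and Lhx2 overlaps the non-coding genes Gm27197 and Gm13584. Otx2, Sox3, Neurog2, Nes and Pax3 overlapped no other gene that was matched to the table.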

How the data were processed

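ATAC-seq libraries of J1 mouse embryonic stem cells were compared, 2 control and 2 Zscan4 OE. The submitters' processing notes name Trimmomatic, Bowtie2, featureCounts and build mm10. The sources used here do not give versions, read filters, duplicate handling, any shift for the Tn5 cut site or the annotation. The deposited values are RPKM per the labels. Each equals whole reads divided by a feature length and by 1 of 8 library totals that took turns down the rows. Short RNA genes with an annotated length gave these totals, and each of the 38361 rows with at least 2 values above 0 came out in whole reads for exactly 1 rotation. Of the 5918 rows with 1 value, 3402 allowed more than 1 rotation and took the shortest length. Recovered reads and lengths may both be short of the truth by 1 shared factor, which leaves RPKM unchanged. Of the 8 placements of totals in rotation order, the one with the most alike share of reads on features was used (highest over lowest 1.36; the others 4.17 to 10.1), so that share is no finding. Values were rescaled to each library's own total. The unit the plan assumed was this rescaled RPKM.

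limma 3.58.1 in R 4.3.3 was run on log2(RPKM + 0.1) with an eBayes trend, where the mean RPKM reached 0.1, two-sided, with Benjamini-Hochberg adjustment over all 42989 rows and a threshold of 0.05. A difference on this scale can understate the change of low genes. Where a library has no reads it can also exceed the difference of the means. Sox3 had means of 0.500 and 0.551 RPKM and a log2 difference of 0.85. Poisson intervals and the floor of 3 reads cover counting error only, and reads without molecular identifiers are not independent molecules. The steps were tested on simulated data. Members and lists were chosen with earlier results of these data known. Named genes are the 10 members, up to 3 genes of each other list with the largest absolute limma statistic, the neighbours of members whose groups did not overlap, and the 3 rows nearest to Otx2 and Six3. Hes5, Emx2, Cer1 and Twist1 are named besides, because they differed upwards where the genes named from their lists were lower. A further gene under this rule is not reported here. Coordinates are RefSeq GRCm38.p6, the assembly behind mm10. Alternatives were other pseudocounts, filters, scalings, voom, a replicate block and each library left out.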

Additional observations from a re-analysis of the deposited data

How the results depend on the processing

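No alternative brought any of the 10 genes past the threshold. Six3 and Nes kept their direction in all 14 alternatives and Otx2 and Pax3 in 13; their groups do not overlap, which fixes the sign in all but the rescaling alternatives. In the values as deposited Otx2 stood at 0.33, Pax3 at 0.057, Zic1 at 0.99 and Neurog2 at 0.87, the members' median at 0.35 and their ratio of summed values at 1.30, because other totals stand behind them; there the median of all rows was 1.40. Centring each library on its median gave −0.059 for Sox1 and −0.19 for Lhx2, and moved the median of all rows from 0.28 to 0.00. Quantile normalization gave −0.30 for Sox3 and −0.028 for Lhx2. With voom Neurog2 was at 0.071 and 1 row was called lower. At 20 reads or more, which leaves out Sox3, 4 rows were called higher and 1 lower. The cause was not tested for these fits. With 1 library left out, the lone library of a group being assumed to vary like the others, the differences ran from −0.89 to 0.36 for Pax6, −0.88 to 2.58 for Sox3, −0.69 to 0.35 for Neurog2, −0.21 to 0.64 for Sox1, −0.20 to 0.36 for Lhx2, −0.58 to 0.066 for Zic1, −1.46 to −0.49 for Otx2, −1.64 to −0.88 for Six3, −1.66 to −0.98 for Pax3 and 0.57 to 1.07 for Nes. The members' median ran from −0.45 to 0.02 and the ratio of sums from 0.711 to 0.972. Rows called higher ran from 0 to 4340 and lower from 0 to 9; leaving out Zscan4 OE 1 gave 4340 and 9, and leaving out Zscan4 OE 2 gave 3860 and 2. With the replicate number as a block, 0 rows were higher and 0 lower. The numbers are not stated to pair the libraries, and deviations of same-numbered libraries correlated at 0.04 over tested rows and 0.129 over rows with 20 reads or more. Depth limits every value: members had 0 to 44 reads per library.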

Other observations

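The rows with the most similar levels to Otx2 and Six3 over the 4 libraries were found by Euclidean distance of log2(RPKM + 0.1) among 19011 other rows with 20 reads or more. For Otx2 these were Gm28035 (distance 0.16), Ifnar2, an interferon receptor gene (0.26), and Kantr, a long non-coding gene (0.26). Gm28035 had 6, 14, 14 and 9 reads where Otx2 had 6, 14, 13 and 8. Its position is not in the annotation used here, so whether it shares reads with Otx2 was not tested. For Six3 they were Vegfa, a vascular growth factor gene (0.28), Slc22a19 (0.40) and Abcg3 (0.44). With 4 libraries and few reads, such likeness is a description of these libraries only.

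Over rows with 20 reads or more and a promoter in the RefSeq table, the median log2 difference was 0.12 where the most CpG-rich window of the gene held 0 to 4 CpGs (1686 rows), 0.07 at 5 to 9 (1688 rows), 0.15 at 10 to 19 (3334 rows), 0.16 at 20 to 29 (3670 rows) and 0.15 at 30 or more (2914 rows). The 8 members with a promoter fell into the classes of 10 to 19 (5 genes) and 30 or more (3 genes). Otx2 and Six3, both lower in Zscan4 OE, and Nes, which was higher, stood in the same class.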
